A study of Mus musculus with 48 samples.

Results

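The junctions described here are the translocations of a Jκ1 break to places outside the antigen receptor loci. They were taken from the junction tables of all 48 libraries as every junction whose prey, the DNA joined to the break, was placed on chr1 to chr19 without chr6, which holds the Igκ locus. Windows around Igh on chr12, the T cell receptor loci on chr14 and chr13, and Igλ on chr16 were left out. Of 8250887 junctions in all, 40003 lay on these 18 chromosomes, and 28504 of them lay outside the windows. These 28504 junctions are 71.3% of those on the 18 chromosomes and 0.345% of the whole series. Reads that shared the prey's place and strand, the last bait letter and the overlap or gap were counted as 1 distinct junction, and there were 4945 of these.

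The cells were pro-B cell lines transformed by v-Abl, either WT (clone B) or Ku70-/- (clone B1, in which Cas9 had removed exons 4 and 5), so that each genotype is 1 line. Cells were either cycling, or arrested in G0-G1 for 96 h with 3 µM STI-571, an inhibitor of the Abl kinase, which also induces the RAG nuclease. Arrested cells received DMSO, 5 µM L67 or 25 µM L82-G17, which inhibit DNA ligases. Each of the 8 combinations was sequenced from the coding end (CE) and from the signal end (SE) of the RAG break at Jκ1, giving 16 groups of 3 libraries. The study's legends describe the experiments as biologically repeated, but the labels do not tie libraries to separate cultures, so p-values measure the spread between these libraries.

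RAG cuts DNA between a coding segment and its recombination signal, a heptamer close to CACAGTG, a spacer and a nonamer. The cut leaves 2 coding ends, closed as hairpins, and 2 signal ends, which are blunt. Nonhomologous end joining, in which the Ku70 and Ku80 dimer binds the ends, joins coding to coding and signal to signal. Without Ku, alternative end joining joins the ends after trimming and often through short matching stretches, called microhomology. A translocation forms when an end of the bait break meets a break on another chromosome.

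The letters on each side of the bait break show what the baits are. In the reference (mm9, chr6:70672526-70672585, plus strand) the 7 letters of the heptamer are in capitals, and the break lies just after them.
bait: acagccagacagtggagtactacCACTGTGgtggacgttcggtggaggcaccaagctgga
The signal end bait ends at position 70672555 of chr6 with the last letter of the heptamer, and the coding end bait begins at 70672556 and is read on the opposite strand. A second place on chr6 recurs below (chr6:70698817-70698916, plus strand). It lies 26.3 kb beyond the bait break in intergenic sequence, 16867 bp from Rpia, the nearest protein-coding gene. The 6 letters in capitals lead into a GT repeat of 42 bases.
chr6 site: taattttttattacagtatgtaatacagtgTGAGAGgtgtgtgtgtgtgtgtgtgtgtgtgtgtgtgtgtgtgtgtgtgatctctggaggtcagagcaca

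The depth was set by the authors at 500000 read pairs a library. The junctions recovered ran from 116039 to 385847 in arrested libraries and from 8294 to 32108 in cycling libraries. The Ku70-/- DMSO library of each bait that comes first in accession order (replicate 1) stood apart, with 53 distinct junctions outside the loci for the coding end and 22 for the signal end, against 177 to 194 in the other 4 Ku70-/- DMSO libraries. The study's supplementary tables leave both out, and the main comparisons of the genotypes, and those calls that change, are also given without them.

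With the coding end bait, the 3 WT cycling libraries held 44, 94 and 64 junctions outside the loci. The WT DMSO libraries held 208, 260 and 265, the WT L67 libraries 250, 503 and 288, and the WT L82-G17 libraries 198, 225 and 132. In Ku70-/- cells the counts were 61, 92 and 46 in cycling cells, which overlapped WT, and 278, 925 and 977 with DMSO. They were 1350, 1402 and 1470 with L67 and 1437, 1488 and 1232 with L82-G17, and every arrested Ku70-/- library was above the WT libraries of its treatment. Over the 4 treatments the Ku70-/- libraries were 3.02-fold higher (a mean log2 difference of 1.60, exact permutation test within treatments, adjusted p = 0.00128), with the same sign in 3 of 4 treatments. Counted as reads, it was 2.61 per 100000 recovered junctions and 2.46 without simple-repeat preys, described below (exact tests, adjusted p = 0.0001 and 0.0004). Counted once per distinct junction, the difference was 0.50 on the log2 scale and did not pass the test (adjusted p = 0.0783 in the same exact test). It passed with the far end of the prey added (0.60, adjusted p = 0.0428) and with junctions of 1 library within 10 bp joined (0.62, adjusted p = 0.0256), by the exact test. Without simple repeats and preys matching Igκ, also described below, it was 1.56 and passed (adjusted p = 0.00373, exact test). P-values here are 2-sided and adjusted over 32 tests.

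With the signal end bait the genotypes lay further apart. WT cycling libraries held 2, 0 and 2 junctions, WT DMSO libraries 127, 190 and 168, WT L67 libraries 144, 304 and 179, and WT L82-G17 libraries 47, 98 and 123. Ku70-/- cycling libraries held 85, 90 and 24, and the DMSO libraries 3522, 1552 and 1614. The L67 libraries held 1238, 1363 and 1157 and the L82-G17 libraries 811, 1386 and 989. No Ku70-/- library overlapped the WT libraries of its treatment, and the mean log2 difference was 3.82 in the same direction in 4 of 4 treatments (14.1-fold, exact permutation test, adjusted p = 0.000133). Without the 2 Ku70-/- DMSO libraries that stood apart, the differences were 1.74 at the coding end and 3.72 at the signal end, and both passed.

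**Figure D1:**
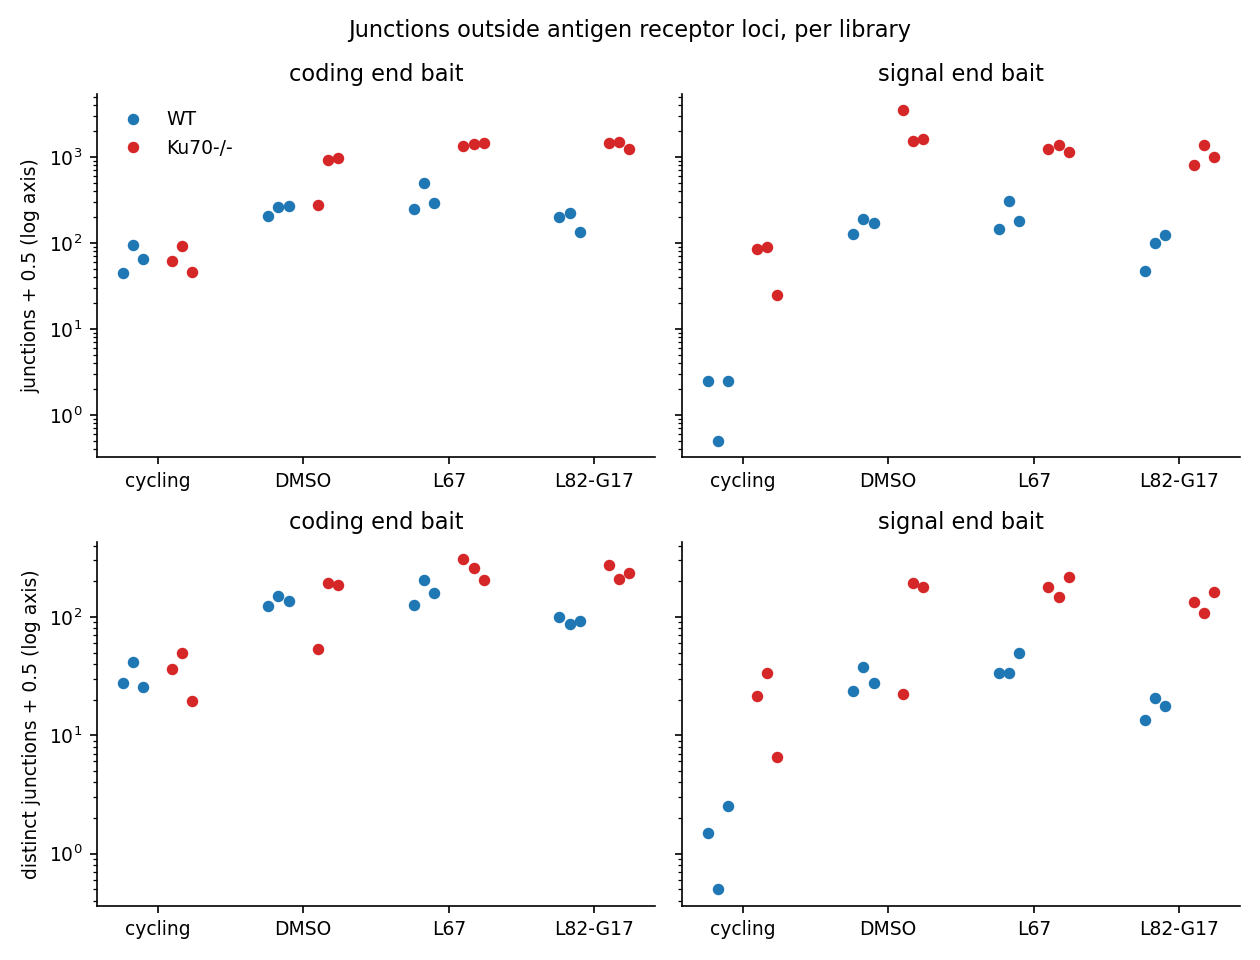
Junctions (top) and distinct junctions (bottom) outside antigen receptor loci in each of 48 libraries, with 0.5 added and a log axis, by treatment for WT (blue) and Ku70-/- (red). Each point is 1 library: every arrested Ku70-/- library lies above the WT libraries of its own treatment in the top panels, while the Ku70-/- DMSO libraries with 53 and 22 distinct junctions lie low in the bottom ones.

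The baits differed in WT cells and not detectably in Ku70-/- cells. WT signal end libraries held fewer junctions than WT coding end libraries, by 1.98 on the log2 scale when averaged over treatments (fell by 1.98, exact permutation test, adjusted p = 0.0004). In Ku70-/- cells the difference was 0.24 (adjusted p = 0.565, same exact test), and it was -0.0025 without the 2 libraries that stood apart. The WT difference was -0.61 with DMSO, -0.73 with L67, -1.12 with L82-G17 and -5.47 in cycling cells, where the signal end gave 0 to 2 junctions. The count of 0, among 25104 junctions, allows a share of up to 0.0120%. Without preys of simple repeats, described below, it was -1.14 and did not pass (adjusted p = 0.0726, exact test).

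Arrest raised the counts in both genotypes. DMSO libraries exceeded cycling libraries by 4.34 on the log2 scale in WT and by 4.23 in Ku70-/- cells (6 libraries against 6, exact permutation test, adjusted p = 0.01 each). The unadjusted p of 0.005 is the smallest these 400 relabellings allow. The labels do not say whether both baits were read from the same cultures. If they were, tests over both baits compare 3 cultures with 3, for which the smallest p is 0.1. Recovered junctions rose as well, and per 100000 of them the differences were 0.55 (adjusted p = 0.593, exact test) and 0.46 (adjusted p = 0.506, exact test). The WT mean joined opposite directions at the baits. With the coding end, WT cycling libraries held 194 to 310 per 100000 and DMSO libraries 53.9 to 71.6, and with the signal end they held 0 to 8.85 and 36.0 to 56.0. Neither pair of ranges overlapped. In Ku70-/- cells the ranges overlapped at both baits, with 336 to 748 and 209 to 650 at the coding end and 221 to 1085 and 825 to 1995 at the signal end. L67 and DMSO differed by 0.38 in WT cells (adjusted p = 0.203, exact test) and by 0.22 in Ku70-/- cells (adjusted p = 0.714, exact test). The Ku70-/- difference was 0.11 without the 2 libraries that stood apart, and its mean joined opposite directions at the baits. At the coding end Ku70-/- L67 libraries held 1350 to 1470 junctions and DMSO libraries 278 to 977. At the signal end they held 1157 to 1363 and 1552 to 3522. Per 100000 recovered junctions they held 825 to 853 and 209 to 650 at the coding end. At the signal end they held 620 to 702 and 825 to 1995. None of these pairs of ranges overlapped, and the baits were not tested apart.

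L82-G17 counts were lower than DMSO in WT cells with a mean difference of -0.68 on the log2 scale (exact permutation test, adjusted p = 0.0282). This call turned with the denominator, since the difference per 100000 recovered junctions was 0.45 in the other direction (adjusted p = 0.236, exact test). It was lost in 4 further settings, with preys of at least 50 bases (-0.62, adjusted p = 0.0941), without simple repeats (-0.43, adjusted p = 0.244), without these and preys matching Igκ (-0.45, adjusted p = 0.305) and in distinct junctions without both (-0.26, adjusted p = 0.379), all by the exact test. It was also lost without any 1 of 5 libraries, which were the WT DMSO coding end replicates 2 and 3, the WT DMSO signal end replicates 2 and 3, and the WT L82-G17 signal end replicate 1, with differences then from -0.67 to -0.48. In Ku70-/- cells the difference was 0.07 (adjusted p = 0.89, exact test). This mean joined opposite directions at the baits. At the coding end L82-G17 libraries held 1232 to 1488 junctions and DMSO libraries 278 to 977. At the signal end they held 811 to 1386 and 1552 to 3522. Neither pair of ranges overlapped. Per 100000 recovered junctions the signal end ranges overlapped, at 690 to 1194 and 825 to 1995, and the coding end ranges did not. The baits were not tested apart. The 2 inhibitors were given at different doses and are not compared with each other.

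Copies per distinct junction describe how many reads stand for 1 joint, which in amplified libraries covers both cells that share a joint and copies made in the test tube. WT coding end libraries ran from 1.45 to 2.62 copies (median 1.96), and Ku70-/- coding end libraries from 1.69 to 7.24 (median 5.24). In cycling cells the ranges overlapped, at 1.63 to 2.56 in WT and 1.69 to 2.42 in Ku70-/- libraries. In arrested cells they were 1.45 to 2.62 and 4.34 to 7.24. The mean log2 difference was 1.10 (exact permutation test, adjusted p = 0.0007). It was 0.46 without simple-repeat preys and did not pass (adjusted p = 0.143, exact test). The call held in 7 of 8 settings, with 0.79 without simple repeats and preys matching Igκ together (adjusted p = 0.0133, exact test). WT signal end libraries ran from 1.00 to 9.21 and Ku70-/- signal end libraries from 2.73 to 160.1, with a difference of 1.09 (exact test, adjusted p = 0.00373). Without the 2 libraries that stood apart it was 0.74 (adjusted p = 0.00618, exact test). The signal end call was lost in 3 of 8 settings, with 0.88 without recurring positions (adjusted p = 0.0891), 0.88 with preys of at least 50 bases (adjusted p = 0.0978) and 0.85 without simple repeats and preys matching Igκ (adjusted p = 0.106), all by the exact test. Of distinct junctions, 77.3% were seen in 1 read in WT coding end libraries and 60.4% in WT signal end libraries. In Ku70-/- libraries the shares were 43.7% and 44.0%.

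The highest copy numbers came from 1 library. In Ku70-/- DMSO signal end replicate 1, a joint at position 22719682 of chr11, in an intron of the pseudogene Gm12057, had 2105 copies, or 59.8% of the library's junctions outside the loci. A joint at position 103117291 of chr14, in intergenic sequence, had 1271 copies, or 36.1%. In WT cells the highest was 168 copies at position 112990848 of chr11, in an intron of the long noncoding RNA gene 2610035D17Rik, which made up 55.3% of WT L67 signal end replicate 2.

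The preys were of 3 kinds, which were defined after their sequences had been seen, so the shares below are a description. A prey was called a simple repeat where its first 40 letters held fewer than 10 distinct words of 3 letters. It was called matching Igκ where its first 60 letters fitted the Igκ region of chr6 at least as closely as the listed place. The listed place was taken with 500 bp on each side, and no other region as long as Igκ was searched for comparison. Where preys matching Igκ came from was not tested. Of 4945 distinct junctions, 1116 were simple repeats, 1064 matched Igκ, 291 of these being both, and 3056 were neither. The last are called other preys. They were not compared with annotated repeats of the genome, so they can still hold repeats of longer units.

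Simple repeats made up most of the distinct WT coding end junctions, and 1097 of the 2531 junctions counted as reads. They were 821 of 1267 distinct junctions there (64.8%), with 53.8% to 84.0% in every one of the 12 libraries. In WT signal end libraries they were 32 of 255, in Ku70-/- coding end libraries 151 of 2024, with 1.89% to 22.2% a library, and in Ku70-/- signal end libraries 112 of 1399. The 2 coding end ranges did not overlap. Of the 821, 789 were GT repeats, they lay on all 18 chromosomes, and 49.7% were on the plus strand. They had 1.34 copies per distinct junction, against 3.8 for other preys of the same libraries.

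Many of these reads carried letters of the chr6 site between bait and prey. Of the 821 joints, 694 had an insertion (84.5%). The insertion was exactly the last 3 to 6 letters of TGAGAG in 275, with GAG in 101, GAGAG in 99 and TGAGAG in 62. In 559 the read ran through GAG into the GT repeat, as at the chr6 site. No Ku70-/- read did so, and 10 of the simple repeats in WT signal end libraries did. The flank followed by 10 units of GT occurred 1 time in the Igκ region. Below, insertions are in capitals between up to 10 letters of bait and up to 70 letters of prey. The joints shown were picked among GT repeats of the 275 joints with such an exact insertion. Of these, the prey had to fit its listed place with no mismatch and the read had to leave the repeat. The most copied joint of each of 5 chromosomes is shown.
chr4:18225089-18225158, minus strand: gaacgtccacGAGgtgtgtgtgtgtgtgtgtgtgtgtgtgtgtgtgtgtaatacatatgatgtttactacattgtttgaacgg
chr11:6629992-6630061, plus strand: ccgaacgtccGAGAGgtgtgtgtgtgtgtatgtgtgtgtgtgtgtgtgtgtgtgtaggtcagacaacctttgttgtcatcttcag
chr10:45076950-45077019, plus strand: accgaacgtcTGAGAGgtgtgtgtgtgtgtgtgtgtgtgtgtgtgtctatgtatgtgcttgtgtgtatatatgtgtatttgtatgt
chr7:72764806-72764875, minus strand: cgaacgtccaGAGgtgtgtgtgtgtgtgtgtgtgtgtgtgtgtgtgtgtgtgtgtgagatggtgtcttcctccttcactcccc
chr2:172452604-172452673, plus strand: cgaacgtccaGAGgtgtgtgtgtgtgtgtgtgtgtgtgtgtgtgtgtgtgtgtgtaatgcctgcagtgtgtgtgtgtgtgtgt
By this choice, each ran from the bait through GAG into a GT repeat and then out into letters of the listed chromosome. The 5 joints are therefore examples and do not show how often this occurred. On the repeat side of the chr6 site itself, WT coding end libraries held 35 to 657 junctions (median 424), and Ku70-/- coding end libraries held 0 to 64 (median 27.5). WT and Ku70-/- signal end libraries held 0 to 46 and 0 to 205 there. On its other side, WT signal end libraries held 44 to 286 junctions and Ku70-/- signal end libraries 0 to 65. WT and Ku70-/- coding end libraries held 0 to 9 and 0 to 136 on that side. On the side away from the repeat, the letters next to TGAGAG read CACTGTA on the opposite strand, which is close to the RAG heptamer. Whether RAG cuts there was not tested. The part of the chr6 site, of read placement and of copying during library preparation in these junctions was not tested.

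**Figure D2:**
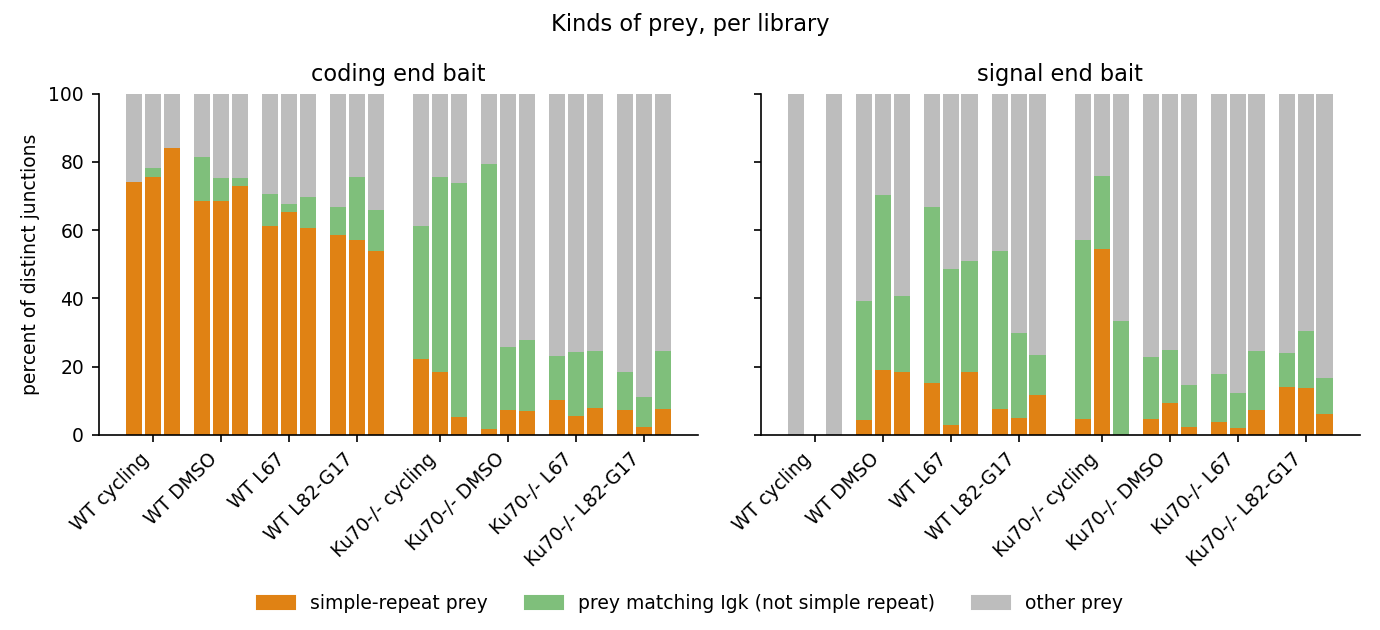
Percent of distinct junctions outside antigen receptor loci that were simple-repeat preys (orange), preys matching Igκ that were not simple repeats (green) and other preys (grey), 1 bar a library and 3 bars a group. Orange takes 53.8% to 84.0% of each WT coding end bar and is low in most of the others. The WT cycling signal end library without a bar had no junction.

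Preys matching Igκ were found in every combination of genotype and bait. They were 307 of 1267 distinct junctions in WT coding end, 100 of 255 in WT signal end, 427 of 2024 in Ku70-/- coding end and 230 of 1399 in Ku70-/- signal end libraries. In 490 of the 1064 the fit to Igκ was closer than to the listed place. Without the 291 that were also simple repeats, their best fits fell at 193 places. The place with the most, chr6:68544299-68544371, took 157 distinct junctions listed on all 18 chromosomes, from 25 libraries. Junctions listed on chr6 itself had a peak within 100 bp of it, with 610 at position 68544369 in WT coding end libraries and 3090 at position 68544371 in WT signal end libraries. Another place, chr6:67453080-67453084, took 34 junctions of Ku70-/- coding end libraries on 13 chromosomes, with 0 chr6 junctions within 100 bp.

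The share of junctions that lay outside the antigen receptor windows, among distinct junctions on the 18 chromosomes, moved in opposite directions at the 2 baits. With the coding end bait it was 90.1% to 100% in WT and 70.5% to 100% in Ku70-/- libraries, a mean difference of -14.0 percentage points (exact permutation test, adjusted p = 0.000889). The share was 96.4% to 100% in WT cycling and 100% in Ku70-/- cycling libraries. The fall therefore lay in arrested libraries, with 90.1% to 97.7% in WT and 70.5% to 83.6% in Ku70-/- cells. With the signal end bait it was 50.0% to 100% in WT and 64.6% to 100% in Ku70-/- libraries, a difference of 18.3 points (exact test, adjusted p = 0.00373). Without the 2 libraries that stood apart, the differences were -14.9 and 17.2 points, and both passed. Within WT cells the signal end share was lower by 28.7 points (fell by 28.7, exact test, adjusted p = 0.0004), and within Ku70-/- cells the bait difference was 3.54 points (adjusted p = 0.119, exact test). The last passed without preys matching Igκ (6.75 points, adjusted p = 0.0116), without these and simple repeats (7.07 points, adjusted p = 0.0133) and without Ku70-/- L67 signal end replicate 2 (4.43 points, adjusted p = 0.0169), all by the exact test. With preys of at least 50 bases the genotype difference at the signal end was 41.5 points and the WT bait difference -50.5 points, and without simple repeats the genotype difference at the coding end was -8.55 points, all past the threshold. The WT signal end libraries therefore held the largest part of their translocations inside the windows among the 4 combinations.

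Joint structure was read from distinct junctions with an overlap or gap of at most 20 bp. In WT coding end libraries insertions led, at 56.2% to 92.7% a library (mean 70.9% ± 12.8, SD, n = 12). In Ku70-/- coding end libraries they were 11.2% to 36.5% (18.3% ± 7.09, SD, n = 12), with no overlap of the ranges. The mean difference was -52.5 percentage points in 4 of 4 treatments (exact permutation test, adjusted p = 0.000133). Direct joints were higher in Ku70-/- libraries by 19.6 points (exact test, adjusted p = 0.0004), and microhomology of 2 bp or more by 22.7 points (exact test, adjusted p = 0.000133). Without simple repeats and preys matching Igκ, the microhomology difference was 10.0 points and did not pass (adjusted p = 0.146, exact test). The insertion and direct differences passed under all 9 alternative settings. They were -22.0 and 11.9 points without simple repeats, and -54.3 and 22.1 points without the Ku70-/- DMSO libraries that stood apart.

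Among other preys insertions were fewer in both genotypes at the coding end. Pooled over WT coding end libraries, 32.4% had insertions, 24.9% were direct, 20.1% had 1 bp and 22.5% had 2 bp or more of microhomology. Over all preys of these WT libraries the same shares were 66.5%, 16.3%, 7.90% and 9.27%. In Ku70-/- coding end libraries, other preys gave 8.39% insertions and 43.1% direct joints, against 15.7% and 36.6% over all preys. The insertion share of WT libraries fell by 39.1 points from the coding to the signal end bait over all preys (exact permutation test, adjusted p = 0.000514). Without simple repeats it fell by 8.16 points (adjusted p = 0.537, exact test).

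With the signal end bait none of the 3 structures tested differed between genotypes past the threshold when each distinct junction was counted once. Direct joints differed by -4.25 points (adjusted p = 0.89), insertions by -15.0 points (adjusted p = 0.203) and microhomology of 2 bp or more by 16.6 points (adjusted p = 0.126), all by the exact permutation test. Here 2 of the 3 WT cycling libraries held 1 and 2 distinct junctions and the other none, so those shares are 0% or 100%. Without WT cycling signal end replicate 1, which held 1 junction, the insertion difference was -27.5 points and passed (adjusted p = 0.0421, exact test). Without simple repeats and preys matching Igκ, microhomology was higher in Ku70-/- libraries by 23.6 points (adjusted p = 0.0004, exact test), while with preys of at least 50 bases it was -2.59 points (adjusted p = 0.762, exact test). Counting all copies of all preys, it was 24 points and passed (adjusted p = 0.00697, exact test).

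**Figure D3:**
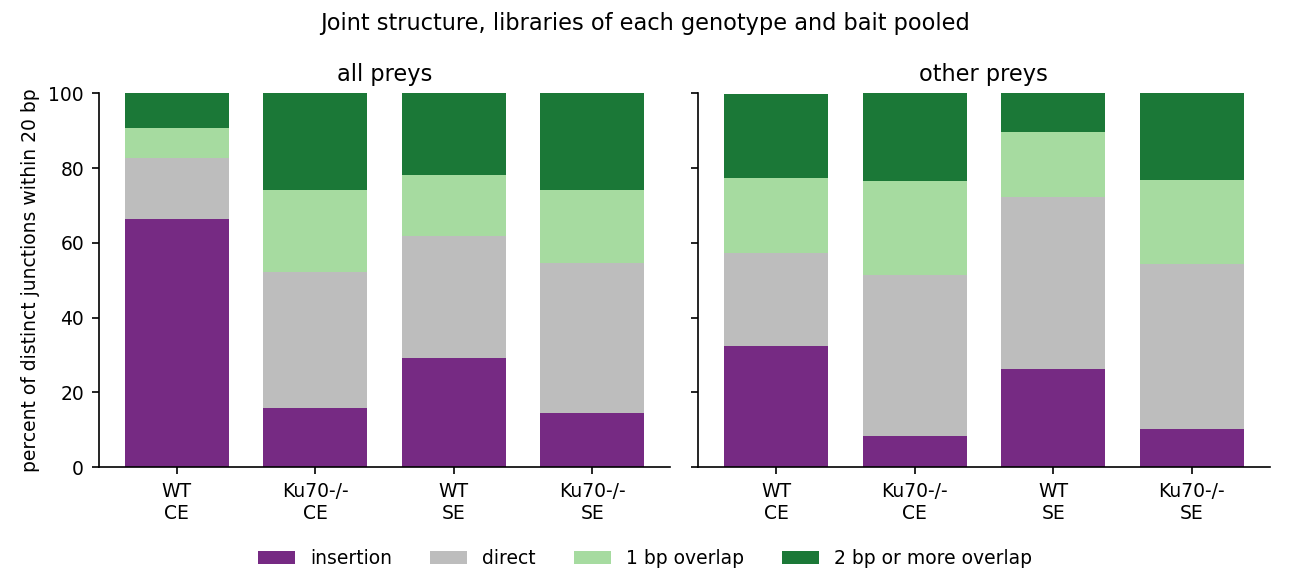
Percent of distinct junctions with insertions, direct joints, 1 bp and 2 bp or more of overlap for each genotype and bait, 12 libraries pooled, over all preys (left) and other preys (right). WT coding end insertions are 66.5% on the left and 32.4% on the right, and Ku70-/- coding end insertions are 15.7% and 8.39%.

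Arrest and microhomology were related differently in the 2 genotypes. From cycling to DMSO, the share of joints with 2 bp or more rose by 14.9 points in WT cells (exact permutation test, adjusted p = 0.01) and fell by 23.9 points in Ku70-/- cells (exact test, adjusted p = 0.0444). The WT coding end went from 0% to 4% up to 5.19% to 9.66%. The WT signal end went from 0%, in 2 libraries with 1 scored joint each, to 16.2% to 30.8%. In Ku70-/- cells the coding end ranges overlapped, at 35.3% to 53.1% and 24.2% to 48.1%. The signal end ranges did not, at 42.9% to 81.8% and 19.2% to 25.9%. The WT call was lost in 3 of 9 settings, with 14.2 points without simple repeats (adjusted p = 0.0726), 8.38 with preys of at least 50 bases (adjusted p = 0.168) and 11.9 without simple repeats and preys matching Igκ (adjusted p = 0.113), by the exact test. The Ku70-/- call was lost in 6 of 9 settings, with -28.0 to -18.2 points and adjusted p from 0.0571 to 0.327 by the exact test. Among them was the setting without the 2 libraries that stood apart (-27.2 points, adjusted p = 0.0711, exact test). Cycling libraries held only 0 to 49 distinct junctions, and Ku70-/- cycling signal end replicate 2 had 81.8% microhomology from 33 junctions, of which 18 were simple repeats. Without that library the Ku70-/- difference was -19.4 points (adjusted p = 0.0622, exact test). The call was lost without any 1 of 7 of the 12 libraries: the second coding end and second signal end cycling replicates, DMSO coding end replicates 2 and 3, and all 3 DMSO signal end replicates. L67 and L82-G17 differed from DMSO by -5.16 to 2.03 points in the 4 tests, with adjusted p from 0.378 to 0.816 by the exact test.

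The bait end was trimmed little in WT and more in Ku70-/- joints. The median number of bait letters lost was 1 in WT coding end and 0 in WT signal end joints, against 17 and 14 in Ku70-/- joints, pooled over libraries. Bait ends were at full length in 33.9% of WT coding end and 58.0% of WT signal end joints. In Ku70-/- joints the shares were 4.99% and 8.08%. Library medians ran from 1 to 2 in WT coding end libraries and from 15 to 24 in the 9 arrested Ku70-/- coding end libraries, without overlap. The 6 cycling Ku70-/- libraries ran from 0 to 30.5. These values are a description.

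Junctions were spread over the 18 chromosomes broadly by length. Across chromosomes, the number of distinct junctions and chromosome length had Pearson r = 0.78 and Spearman rho = 0.76 (n = 18, all from the same pooled libraries). Distinct junctions per 100 Mb were highest on chr11, with 318 (387 junctions), and chr19, with 316 (194 junctions). They were lowest on chr8, with 159 (209 junctions), and chr3, with 174 (277 junctions). Among other preys chr11 and chr19 were again highest, with 227 and 201 per 100 Mb, and chr8, chr13 and chr3 were lowest, with 82.7, 93.9 and 102. For other preys the relation to length had Pearson r = 0.67 and Spearman rho = 0.63. Counted as copies it was weaker (Pearson r = 0.33, Spearman rho = 0.61), and 2105 of the 4380 copies on chr11 came from the 1 joint named above.

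No chromosome's share of distinct junctions differed detectably between genotypes. WT cycling signal end libraries entered with 1 and 2 distinct junctions, so their shares are coarse. The test called 0 of 18 chromosomes (0% of those tested), by an exact permutation test within treatment and bait with Benjamini-Hochberg adjustment over the 18. At an unadjusted p under 0.05 it called 1, chr19, with mean shares of 4.11% in Ku70-/- and 2.24% in WT libraries (exact permutation p = 0.0192, adjusted p = 0.346). The 0 calls held in the 6 alternative settings and with each library left out.

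**Figure D4:**
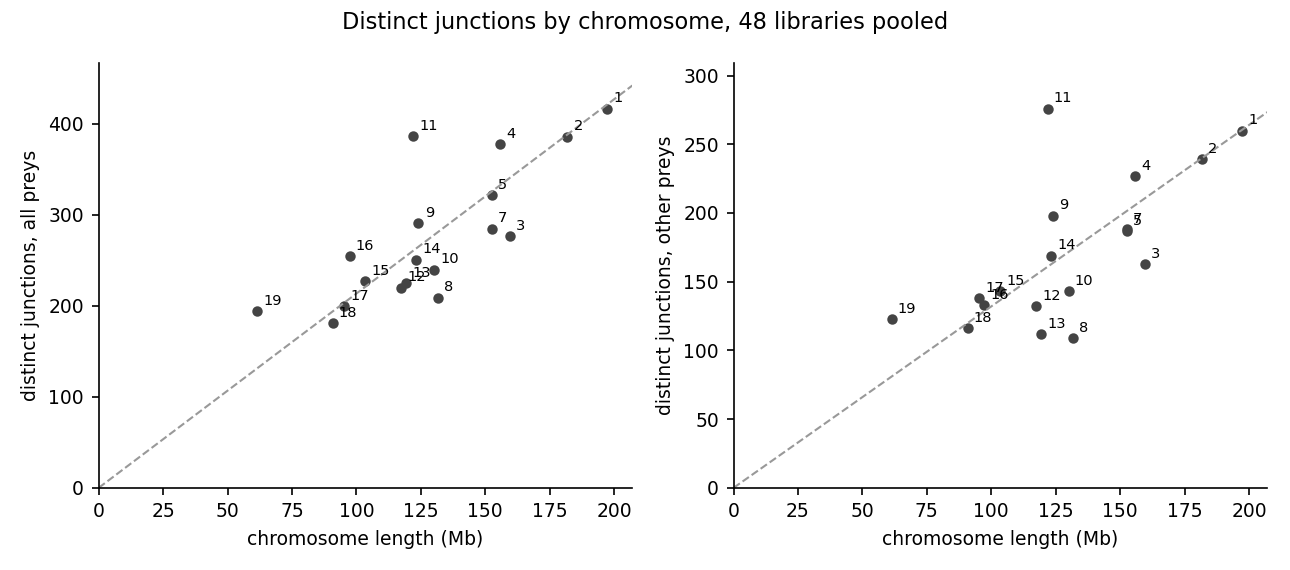
Distinct junctions against chromosome length in Mb for 18 chromosomes, 48 libraries pooled, over all preys (left) and other preys (right). The dashed line is the mean density, and chr11 and chr19 lie above it while chr8 and chr3 lie below it in both panels.

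Few positions recurred. Of 4533 positions, given by chromosome, place and strand, 148 were found in 2 or more libraries (3.26%), 44 in 3 or more, and the most libraries at 1 position was 10. Of the 148, 80 were found in WT libraries alone, 51 in Ku70-/- libraries alone and 17 in both. Recurring positions held 436 distinct junctions, of which 198 were simple repeats, 206 matched Igκ and 92 were other preys. That is 17.7% of all simple-repeat junctions, 19.4% of those matching Igκ and 3.01% of other preys. They had 3.09 copies per distinct junction, against 6.02 elsewhere. Of the 92 other preys, 80 belonged to joints that were also alike in last bait letter and overlap or gap in 2 or more libraries. How these joints came to be shared was not tested.

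Joined over 1 kb, the junctions formed 4057 clusters, of which 185 lay in 2 or more libraries (4.56%) and 26 in 5 or more. The cluster in the most libraries, chr16:3513836-3513912, was in 13, with 18 distinct junctions of 1 copy each, 16 of them matching Igκ. The next, chr19:3134904-3135235, was in 12 libraries, with 27 of 29 distinct junctions matching Igκ, 23 of them from Ku70-/- coding end libraries. The third, chr2:117628778-117628798, was in 11 libraries with 22 simple repeats among 23. All 3 lie between genes. At chr8:93296336-93296345 all 14 distinct junctions of 10 libraries matched Igκ. At position 12150485 of chr4, 9 WT signal end libraries and 1 Ku70-/- signal end library shared 1 position, with 23 copies in all. Of its 10 distinct junctions, 6 matched Igκ and 4 were other preys.

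The other 5 of the 10 most recurrent clusters lay in genes. Clusters of simple repeats lay in introns of Phactr1, a regulator of actin and protein phosphatase (9 libraries, 18 of 18 simple repeats), Slc8a3, a sodium-calcium exchanger (8 libraries, 12 of 12), and Zfp148, a zinc finger transcription factor (8 libraries, 12 of 12). Another lay in an intron of Tbc1d22a (8 libraries, 9 of 9). The last, at chr2:98506706-98507204, overlapped an exon annotated as Gm10800, and its 10 distinct junctions from 8 libraries were all other preys, with 33 copies. Whether this cluster and those below lie in repeated sequence was not checked.

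Clusters of other preys alone were rarer. Of 2678 such clusters, 54 were in 2 or more libraries (2.02%) and 8 in 4 or more. After Gm10800, the most libraries were at chr1:167572044-167572095, which lies 6981 bp from Rcsd1, with 7 libraries of both genotypes, 8 distinct junctions and 67 copies. A position in an intron of Sp1, a general transcription factor gene, was in 6 Ku70-/- signal end libraries of all 4 treatments and in no other library, with 107 copies, 106 of them of 1 joint. A position on chr16, 630531 bp from the nearest gene Adamts5, was in 6 WT coding end libraries with 11 copies. The most copied read of each is shown because the same joint came back in 6 libraries, with up to 15 letters of bait first. Capitals mark the bait in the first and a 6 bp overlap of bait and prey in the second.
chr15:102248305-102248344, minus strand (Sp1 intron): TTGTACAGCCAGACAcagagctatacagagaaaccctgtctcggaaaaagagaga
chr16:86531901-86531940, plus strand: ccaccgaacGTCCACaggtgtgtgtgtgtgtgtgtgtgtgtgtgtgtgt
The bait end of the first had lost 19 letters and joined directly. The second was placed at full bait length and ran into a GT repeat, although its first 40 letters did not meet the simple-repeat rule.

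Among other preys, the share near gene starts was highest in WT signal end libraries. Of 129 other preys in WT signal end libraries, 63 (48.8%) lay within 5 kb of the start of a protein-coding gene, in 46 genes. Such windows cover 7.79% of the sequence. The share was 14.6% in WT coding end (51 of 350), 16.2% in Ku70-/- coding end (241 of 1491) and 13.3% in Ku70-/- signal end libraries (144 of 1086). Within 500 bp of a start lay 25 of the 129 (19.4%), in windows that cover 0.831% of the sequence. With junctions of 1 library within 10 bp joined into 1, 48 of 108 (44.4%) lay within 5 kb. Of the 63, 51 lay at or downstream of the start, and the median of all 63 was 408 bp downstream.

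The test of this was set over all preys, after the pattern had been seen. WT signal end libraries had 0% to 40% of distinct junctions within 5 kb (median 22.4%, n = 11) and WT coding end libraries 2.44% to 14.1% (median 8.67%, n = 12). The mean difference was 11.6 percentage points (exact permutation test, adjusted p = 0.0246 over 4 such tests). The 2 values of 0% were cycling libraries with 1 and 2 junctions, and 8 of the 9 arrested signal end libraries were above the highest coding end value. In Ku70-/- cells the bait difference was 0.95 points (adjusted p = 0.573, exact test). At the coding end the genotypes differed by 3.13 points (adjusted p = 0.0862, exact test). That difference passed without WT cycling coding end replicate 3 (adjusted p = 0.0171) or Ku70-/- DMSO coding end replicate 2 (adjusted p = 0.04965), by the exact test. It was -2.42 points without simple repeats and preys matching Igκ (adjusted p = 0.597, exact test). The genotypes differed by -7.49 points at the signal end (adjusted p = 0.105, exact test) and by -24.4 points without simple repeats and preys matching Igκ (adjusted p = 0.0033, exact test). The WT bait difference did not pass without recurring positions (12.4 points, adjusted p = 0.102) or with nearby junctions joined (7.81 points, adjusted p = 0.0867), both by the exact test.

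**Figure D5:**
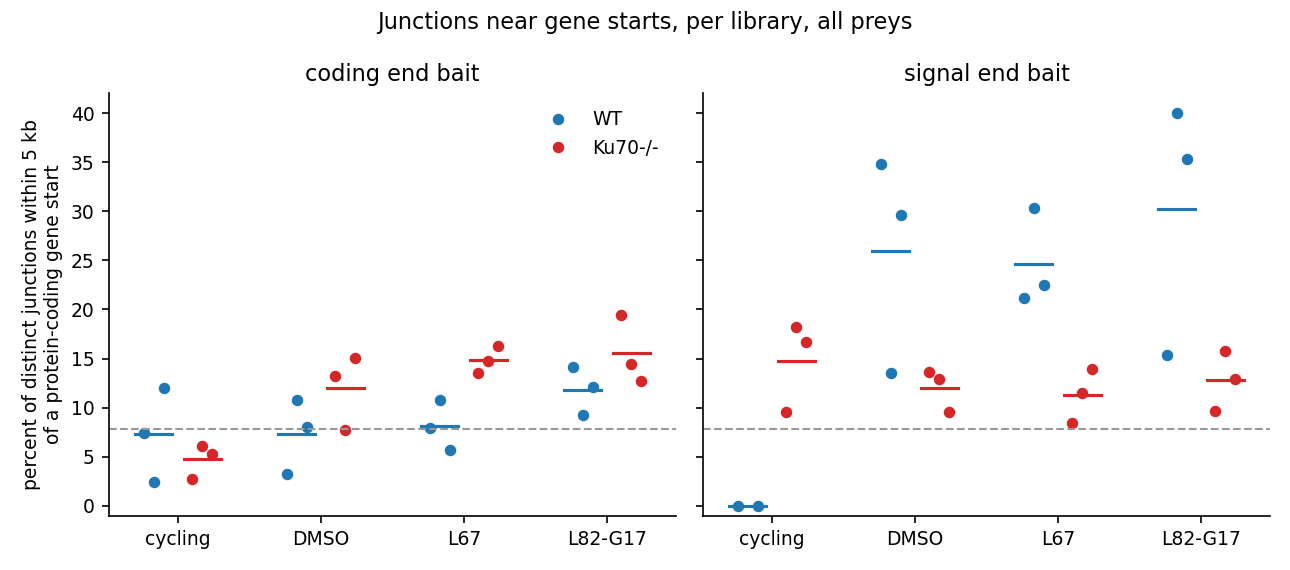
Percent of distinct junctions within 5 kb of a protein-coding gene start in each library, over all preys, by treatment for WT (blue) and Ku70-/- (red), with bars at group means. The dashed line is the 7.79% of sequence such windows cover, and 8 of 9 arrested WT signal end libraries lie above every WT coding end library.

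Of the 63 joints near gene starts, 44 had a bait end exactly at the break. Of all 129 other preys of these libraries, 88 (68.2%) had a bait end at or past the break. The second count takes in bait alignments that ran past the break and the first does not, so the 2 are not compared. Of the 44, 27 were also direct, so that the whole heptamer was followed at once by prey letters. The most copied such joints are shown, with the last 7 letters of bait in capitals and 23 of prey.
Hsbp1, chr8:121868416-121868438, minus strand: CACTGTGcgtcacctacacttcggtttctc
Hnrnpc, chr14:52723171-52723193, plus strand: CACTGTGccaccatgttatcgctcccctac
Mrpl52, chr14:55045946-55045968, minus strand: CACTGTGtactaggtcccgccgcgcccccg
Irf2, chr8:47826946-47826968, plus strand: CACTGTGttgggggacatgtttcttgtccc
Ccr7, chr11:99014032-99014054, minus strand: CACTGTGatgtatgtcaacacgcaacacca
Hsbp1, which encodes a binding partner of heat shock factor, had 53 copies at its annotated start. Hnrnpc, encoding a nuclear RNA-binding protein, had 41 copies 532 bp downstream. Mrpl52 encodes a subunit of the mitochondrial ribosome and had 30 copies 222 bp downstream. Irf2, an interferon regulatory factor, had 30 copies 1847 bp downstream, and Ccr7, a chemokine receptor of lymphocytes, had 23 copies 2337 bp downstream. The Mrpl52 joint lay just outside the chr14 window. The highest copy number was 81, at Fam73b, where bait and prey overlapped by 1 bp. Each of these joints came from 1 library, and of the 46 genes only Sil1 and Ybx1 were hit in 2 libraries. For both genes this was 1 identical joint in the same pair of libraries, WT L67 signal end replicate 3 and WT L82-G17 signal end replicate 1, and how it came to be in both was not tested.

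Preys at WT signal end junctions began with CAC, the first letters of a RAG heptamer, in a larger share than in the other combinations. Of 123 positions of other preys, 20 (16.3%) began with CAC, against 1.53% of the words 60 to 150 bases into the prey. Of the 20, 6 began with a run of CA. The shares were 2.96% of 338 in WT coding end, 2.82% of 1453 in Ku70-/- coding end and 2.20% of 1046 in Ku70-/- signal end libraries. CACAGTG or CACTGTG, on either strand, lay within 30 bases of 12.2% of the WT signal end positions, against 0.813% for windows of the same length nearby. On the other side of the prey position, which the joint lost, GTG next to it was seen in 4.07% against 1.52% further out in WT signal end and 4.44% against 2.05% in WT coding end libraries. In Ku70-/- libraries it went the other way, with 0.895% against 1.71% at the coding end and 0.669% against 1.69% at the signal end. The heptamer shares were 6.51% and 2.07% in WT coding end libraries, 2.20% and 1.24% in Ku70-/- coding end libraries, and 2.39% and 1.72% in Ku70-/- signal end libraries. These shares are a description chosen after the sequences had been seen. The 3 most copied joints of this kind were all direct and untrimmed, and CAC is in capitals.
upstream of Ybx1, chr4:118969531-118969553, minus strand: cactgtgCACagtgagactcttgtctcaaa
Mga, chr2:119722986-119723008, minus strand: cactgtgCACcgtgtgtccgcttcagctga
Brd1 as the nearest gene start, chr15:88261514-88261536, plus strand: cactgtgCACacacacacacacacccacgt
The first reads CACAGTG in full, 2344 bp upstream of Ybx1, which encodes a nucleic acid binding protein, and had 17 copies in one library and 1 in another. The second lies 44 bp into Mga, which encodes a partner of Max, and had 16 copies. The third had 12 copies and runs into CA repeats.

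Genes known as regulators of the B lineage or translocation partners, as off-target sites of RAG, or tied to these cell lines (Xrcc6, Abl1 and Bcl2) were looked up whatever they showed. Of 19 such genes outside chr6, each with 10 kb on both sides, 8 held a junction. Ebf1, a regulator of the B lineage, held 13 distinct junctions in 8 libraries, of which 1 was an other prey and 12 lay in an intronic simple-repeat cluster at chr11:44469505-44469516. Pax5, another such regulator, held 2 in 2 Ku70-/- coding end libraries, with 14 copies. Lef1, Bach2, Abl1, Ikzf1, Runx1 and Notch1 held 1 each, with 14, 11, 4, 2, 1 and 1 copies. Those without a junction included Myc, Pvt1, Bcl6, Bcl2, Tcf3, Ikzf3, Cdkn2a, Gfi1, Bcl11b and Xrcc6, the gene of Ku70. Together the genes held 21 distinct junctions, or 0.425% of all, in 0.121% of the sequence. Of other preys they held 8, or 0.262%.

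Other preys lay in gene bodies more often than the sequence these cover, as a description. Of other preys, 48.8% lay in protein-coding genes, which cover 38.3% of the sequence. The share was highest in WT signal end libraries, with 58.9% of 129, and lowest in WT coding end libraries, with 40.9% of 350. Protein-coding genes longer than 300 kb held 9.85% of all distinct junctions and 9.0% of other preys, and cover 11.2% of the sequence. Other preys lay on the plus strand in 45.7% to 50.3% of cases in the 4 combinations of genotype and bait.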

How the data were processed

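HTGTS-JoinT-seq junction tables of 48 libraries were used as deposited: 1 row a junction read, with prey and bait coordinates and the read. Per the study's methods, the authors downsampled each library to 500000 read pairs, mapped it to mm9 with TranslocWrapper.pl and kept duplicate reads, so copies are not independent molecules. The submitters' notes name Bowtie2 and mm9; versions are not given in the sources used here. The members, lists and windows were chosen with earlier results of these data known.

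Bait end, overlap or gap and prey length were computed from the alignment columns with Python 3.11.15 and pandas 2.3.3. Preys were compared with mm9 and the Igκ region (67.4 to 70.8 Mb of chr6) with edlib 1.3.9.post1 and pysam 0.24.0. Genes came from GENCODE vM1. Groups were compared by exact permutation of library labels within treatment or bait, on log2 (count + 0.5), log2 copies or percent, with Benjamini-Hochberg adjustment and a threshold of 0.05. Groups of 3 libraries allow no p below 0.1 on their own. The tests were checked on simulated libraries. Regions named were the 10 clusters in the most libraries, and other regions and reads were chosen after their values were seen. A library with no junction gives no share and left those tests. P-values measure only the spread between these libraries.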

Additional observations from a re-analysis of the deposited data

Results flagged for a closer look

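Effects differed between WT and Ku70-/- cells in 5 of 10 tests of the difference, in which bait or treatment labels were permuted exactly within each genotype and group. The null of this test is no effect in either genotype. Taken with its sign, the signal end minus coding end difference was higher in Ku70-/- than in WT cells by 2.22 for log2 junctions (adjusted p = 0.00278), by 32.3 percentage points for the share outside the antigen receptor windows (adjusted p = 2.73e-05) and by 37.6 points for insertions (adjusted p = 0.00278), all by the exact permutation test. In that order the WT differences were -1.98, -28.7 and -39.1, larger in size than the Ku70-/- ones, at 0.24, 3.54 and -1.57. WT cycling signal end libraries, which held 2, 0 and 2 junctions, are part of these means. The tests were not repeated without them or without the 2 libraries that stood apart. For preys within 5 kb of a gene start the Ku70-/- difference was lower than the WT one, by -10.6 points (adjusted p = 0.0433, exact test), in a measure chosen after the WT pattern had been seen, so this p is no independent support. The WT bait difference behind it lost its call without recurring positions and with nearby junctions joined. The WT bait difference in junctions also lost its call, at -1.14 without simple repeats and -1.15 without these and preys matching Igκ. The change in microhomology of 2 bp or more from cycling to DMSO differed by -38.8 points (adjusted p = 0.00278, exact test). The change itself lost its call in 3 of 9 settings in WT and in 6 of 9 in Ku70-/- cells, and the difference was not tested under those settings. The insertion difference moved with simple-repeat preys, which were 64.8% of WT coding end and 12.5% of WT signal end distinct junctions. Without them the WT bait difference in insertions was -8.16 points.

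Junctions were also found on chromosomes outside the comparisons. chrX held 788 junctions (244 distinct) in 38 libraries, with 0 to 31 in cycling and 0 to 66 in arrested libraries. chrY held 7 junctions in 5 libraries and none in cycling libraries. The mitochondrial chromosome held 293 junctions (42 distinct), all in Ku70-/- arrested libraries, where 13 of 18 libraries held any, with a median of 11.5 and up to 68. The 18 WT arrested libraries and the cycling libraries held 0, and a count of 0 allows up to 3 junctions a library. The difference was not tested.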

How the results depend on the processing

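Of 37 tested results, 10 kept their direction and their side of the threshold in every setting and with every library left out. Values are log2 differences for junctions and copies and percentage points for shares, and microhomology means 2 bp or more. Several settings were chosen after seeing the data: those on simple repeats, preys matching Igκ, nearby junctions and 2 kb windows. The cause of each change was not tested.

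Counting each distinct junction once gave 0.50 for Ku70-/- against WT with the coding end and -0.69 between baits in Ku70-/- cells, which was -0.64 when the far end of the prey was added. Per 100000 recovered junctions, arrest gave 0.55 in WT and 0.46 in Ku70-/- cells, and L82-G17 gave 0.45 in WT. Untransformed counts gave -148 for L67 and -254 for L82-G17 in Ku70-/- cells. Counting all copies gave microhomology differences of 24 (genotype, signal end), -18.2 (arrest, Ku70-/-) and -1.57 (L67, WT).

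Without recurring positions, Ku70-/- junctions differed by -0.13 for L82-G17 and by -0.092 between baits, copies by 0.88 between genotypes at the signal end, Ku70-/- insertions by 0.32 between baits, and WT gene starts by 12.4 between baits. With preys of at least 50 bases, L82-G17 gave -0.62 in WT junctions, copies gave 0.88 (genotype, signal end) and -0.38 (arrest, WT), direct joints 9.41 and microhomology -2.59 (genotype, signal end), arrest 8.38 in WT and -23.8 in Ku70-/- microhomology, and gene starts -0.53 (bait, Ku70-/-) and -20.1 (genotype, signal end).

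Without the Ku70-/- DMSO library of each bait that stood apart, Ku70-/- junctions differed by -0.036 for L82-G17 and by -0.0025 between baits, and microhomology by -27.2 on arrest. Without simple repeats, WT junctions differed by -0.43 for L82-G17 and -1.14 between baits, copies by 0.46 (genotype, coding end), WT insertions by -8.16 between baits, and microhomology by 14.2 (arrest, WT), -21.9 (arrest, Ku70-/-) and 0.75 (L82-G17, WT). Without preys matching Igκ, the Ku70-/- bait differences were 6.75 in the outside share and 0.46 in insertions, and microhomology differed by 19.9 (genotype, signal end), -1.78 (L67, WT) and 0.69 (L82-G17, Ku70-/-).

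Without both kinds, WT junctions differed by -0.45 for L82-G17 and -1.15 between baits, copies by 0.85 (genotype, signal end), the Ku70-/- outside share by 7.07 and WT insertions by -6.78 between baits. Microhomology then differed by 10.0 and 23.6 between genotypes at the coding and signal end, by 11.9 (arrest, WT), -28.0 (arrest, Ku70-/-) and 3.54 (L82-G17, WT), and gene starts by -0.91 (bait, Ku70-/-), -2.42 and -24.4 (genotype, coding and signal end). Distinct junctions of the other preys differed by -0.26 (L82-G17, WT) and -0.39 (bait, Ku70-/-). Joining junctions within 10 bp gave 2.07 (arrest) and -0.79 (bait) in Ku70-/- junctions, -4.86 in Ku70-/- insertions between baits, -22.0 in Ku70-/- microhomology on arrest and 7.81 in WT gene starts. Windows of 2 kb gave gene start differences of -0.74 (bait, Ku70-/-) and -12.3 (genotype, signal end).

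Leaving out 1 library at a time gave, for junctions, -0.83 to -0.48 (L82-G17, WT), -0.23 to 0.26 (L82-G17, Ku70-/-) and -0.080 to 0.41 (L67, Ku70-/-). It gave 2.46 to 4.43 for the Ku70-/- outside share between baits, -16.8 to 8.25 for direct joints and -27.5 to -2.47 for insertions between genotypes at the signal end, -3.32 to 0.24 for Ku70-/- insertions between baits, and 2.52 to 3.72 for gene starts between genotypes at the coding end. Microhomology ran from -29.1 to -19.4 (arrest, Ku70-/-), -2.09 to 7.48 (L67, WT) and -4.73 to 1.71 (L82-G17, WT). No paired analysis was possible because the labels give no replicate numbers. Cycling libraries, with at most 32108 junctions recovered, limit every comparison with arrest.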

Other observations

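Some libraries shared whole joints. In 2 or more libraries, 89 joints were alike in prey place, strand, last bait letter and overlap or gap. They made up 218 distinct junctions, 80 of them other preys, with 1106 copies. Among the 126 pairs of libraries that shared any joint, Ku70-/- L67 signal end replicate 3 and Ku70-/- L82-G17 signal end replicate 1 shared the most, with 17. These were 7.87% of the distinct junctions of the former and 12.7% of the latter. Each of the 17 had more copies in the L82-G17 library, with 298 copies in all against 22. WT L82-G17 signal end replicate 1 shared 4 of its 13 distinct junctions (30.8%) with WT L67 signal end replicate 2 and 3 (23.1%) with WT L67 signal end replicate 3. How joints came to be shared was not tested. After the pair with 17, the next pairs shared 5. Of the 89 joints, 21 had 10 or more copies in 1 library and at most 2 in another.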
